A study of Homo sapiens with 10 samples.

Results

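The genes described here are 6 canonical targets of the transcriptional coactivator YAP and its DNA-binding partners of the TEAD family: CYR61, CTGF, ANKRD1, AMOTL2, LATS2 and AJUBA. They were taken by symbol from a table of 20030 genes, all 6 were found, and all 6 passed the filter on low values applied before testing (a mean of 1 FPKM or more across the libraries, met by 10477 genes). The list was chosen by gene name as known YAP targets, but it was proposed after CYR61 and CTGF were seen to be high in FPKM under the drug combination in these same libraries, so the difference of the 6 genes between combination and control is given as a description, without a test.

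RNA was sequenced from liver cancer cell lines called PLC, 97H and Huh7 in the labels. PLC and 97H cells received the combination of a CDK4/6 inhibitor with an XPO1 inhibitor, the XPO1 inhibitor alone (KPT330, which is selinexor), the CDK4/6 inhibitor alone (not named in the labels), or vehicle as control, and Huh7 cells received the CDK4/6 inhibitor or vehicle. CDK4 and CDK6 are the kinases that start the cell cycle with cyclin D, and XPO1 exports proteins and RNAs from the nucleus. The labels give no dose or time, and name no genetic change made to the lines. Each line and treatment has 1 library, which gives 2 combination, 2 XPO1 inhibitor, 3 CDK4/6 inhibitor and 3 control libraries, so the line is the replicate and no spread can be had within a line.

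YAP and its paralogue TAZ have no DNA-binding domain of their own and act through TEAD1 to TEAD4. The Hippo kinases LATS1 and LATS2 phosphorylate YAP and TAZ, which keeps them in the cytoplasm, and the pathway restrains growth of the liver. The 6 genes hold different places around this pathway. CYR61 and CTGF encode secreted matrix-associated proteins of the CCN family, which signal through integrins. ANKRD1 encodes an ankyrin repeat protein of nucleus and sarcomere. AMOTL2, an angiomotin, binds YAP at cell junctions, and LATS2 is the kinase itself, so that both products act back on YAP. AJUBA, a LIM domain protein, binds LATS kinases and restrains them.

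In GRCh38 the protein-coding genes lie at chr1:85580761-85583962 on the plus strand (CYR61) and, on the minus strand, at chr6:131948176-131951373 (CTGF), chr10:90912096-90921276 (ANKRD1), chr3:134355874-134375479 (AMOTL2), chr13:20973032-21061547 (LATS2) and chr14:22971174-22982642 (AJUBA), by GENCODE 29. The antisense genes AL133346.1 and LATS2-AS1 overlap CTGF and LATS2, and the coding gene AL132780.3 overlaps AJUBA on its own strand. None of these 3 is in the table, and the sources used here do not say whether counting used strand.

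The letters GGAATG are the core of the sequence bound by TEAD proteins. The upstream sequences of CTGF, ANKRD1 and AMOTL2, which hold these letters on either strand, are shown. That of AJUBA also holds them but is not printed. RefSeq windows of GRCh38.p14 were found for 5 of the 6 genes, with CYR61 having none in the table used. The 250 bases before the annotated start are printed 5′ to 3′ on the strand of the gene, with the motif in capitals (CATTCC where it lies on the other strand). The windows are chr6:131951373-131951622 for CTGF, chr10:90921088-90921337 for ANKRD1 and chr3:134374448-134374697 for the second of the 2 AMOTL2 starts, all on the minus strand.
CTGF: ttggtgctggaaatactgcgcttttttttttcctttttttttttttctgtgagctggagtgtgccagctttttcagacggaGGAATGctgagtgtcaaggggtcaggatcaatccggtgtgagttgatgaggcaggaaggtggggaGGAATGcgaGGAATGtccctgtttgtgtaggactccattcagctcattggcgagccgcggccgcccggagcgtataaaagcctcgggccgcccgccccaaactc
ANKRD1: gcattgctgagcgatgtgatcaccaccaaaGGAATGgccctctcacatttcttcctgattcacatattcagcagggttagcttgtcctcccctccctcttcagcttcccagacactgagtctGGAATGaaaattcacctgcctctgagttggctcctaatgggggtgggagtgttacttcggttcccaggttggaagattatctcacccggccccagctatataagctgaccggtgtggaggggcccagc
AMOTL2: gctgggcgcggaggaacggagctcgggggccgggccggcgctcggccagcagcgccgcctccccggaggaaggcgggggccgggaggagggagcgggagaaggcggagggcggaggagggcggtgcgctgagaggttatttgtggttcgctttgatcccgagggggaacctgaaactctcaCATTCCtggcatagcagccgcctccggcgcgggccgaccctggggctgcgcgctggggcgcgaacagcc

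CTGF held 3 matches, which begin 169, 104 and 95 bases before its start. ANKRD1 held 2, at 220 and 128 bases, AMOTL2 held 1 at 69 bases before its second start, and AJUBA held 1 at 59 bases before its second start. These letters are not in the window of LATS2 or in those of the first starts of AMOTL2 and AJUBA. Of 35116 windows of this length in the table, 11.9% held at least 1 match, 0.94% at least 2 and 0.0826% at least 3. A match is a string of letters and not a measured binding site.

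**Figure D1:**
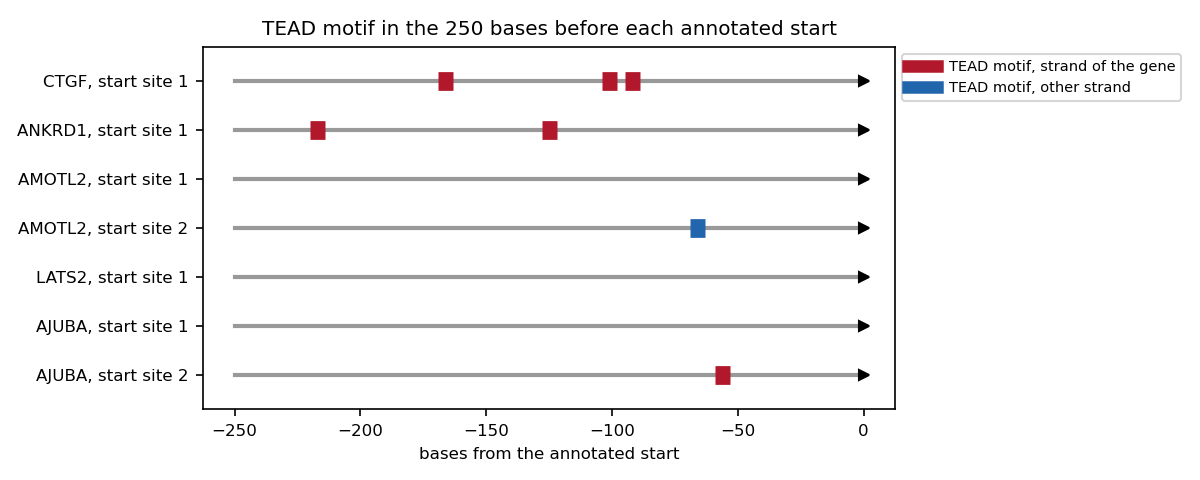
Places of GGAATG, on the strand of the gene or the other strand, in the 250 bases before each annotated start of 5 YAP target genes; the x axis counts bases from the start, which the arrowhead marks. CTGF has 3 matches, ANKRD1 has 2, and AMOTL2 and AJUBA have 1 each, before their second start.

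The libraries are described in FPKM, fragment counts scaled by transcript length and library size, which allows levels of different genes to be set side by side. Between 14033 and 15264 genes were above 0 FPKM per library. FPKM does not carry the absolute depth. From low values, depth relative to the PLC combination was 0.871 in the PLC control and up to 1.13 elsewhere, though between 4.32% and 8.35% of low genes gave that ratio. The PLC control also stood apart from the treated PLC libraries: 56.5%, 57.7% and 59.5% of tested genes were above it in the combination, XPO1 inhibitor and CDK4/6 inhibitor libraries, against 48.4%, 46.6% and 44.5% in 97H. All 9 hepatocyte lineage markers reached 1 FPKM in at least 1 library of each treatment, but not in every line. APOB had 0.244 to 0.421 FPKM in 97H. ALB (albumin) had 2.32 to 15.8 FPKM in PLC and 97H, against 1060 to 1260 FPKM in Huh7.

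CYR61, the first of the secreted proteins, was above control in every treated library. It had 299.5 FPKM in PLC and 75.62 FPKM in 97H under the combination, 267.5 and 62.06 FPKM under the XPO1 inhibitor, 169.8 and 20.35 FPKM under the CDK4/6 inhibitor, and 37.58 and 8.967 FPKM in the controls. In Huh7 it had 175.1 FPKM with the CDK4/6 inhibitor, against 99.46 FPKM in the control. In both PLC and 97H the order was combination, XPO1 inhibitor, CDK4/6 inhibitor, control. The level differed between lines by more than some of these steps, so that the Huh7 control exceeded all 4 libraries of 97H. In RNA from whole cultures, a change in the share of cells that express a gene and a change in its RNA per cell cannot be told apart.

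The difference from control, as log2 of the ratio of FPKM + 1, was 2.96 in PLC and 2.94 in 97H under the combination and 2.80 and 2.66 under the XPO1 inhibitor. Under the CDK4/6 inhibitor it was 2.15 in PLC, 1.10 in 97H and 0.81 in Huh7. Set among the 10477 tested genes of the same pair of libraries, CYR61 was 12th from the top in PLC and 11th in 97H for the XPO1 inhibitor. For the CDK4/6 inhibitor it was 134th in PLC, 170th in 97H and 699th in Huh7.

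CTGF was likewise above control in every treated library, but in another order in PLC. It had 77.51 FPKM in PLC and 73.48 FPKM in 97H under the combination, 105.8 and 37.12 FPKM under the XPO1 inhibitor, 45.55 and 15.47 FPKM under the CDK4/6 inhibitor, and 13.43 and 10.41 FPKM in the controls. In Huh7 it had 353.4 FPKM with the CDK4/6 inhibitor, against 124.8 FPKM in the control. The PLC library with the XPO1 inhibitor alone was above the PLC combination library, while in 97H the combination was the higher. The log2 ratios to control were 2.44 in PLC and 2.71 in 97H under the combination, 2.89 and 1.74 under the XPO1 inhibitor, and 1.69 and 0.53 under the CDK4/6 inhibitor. The Huh7 pair, which lies outside the comparison of combination with control, gave 1.49 for CTGF, 116th from the top of the tested genes.

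ANKRD1 differed between libraries by the widest ratio of the 6 genes. Under the combination it had 34.33 FPKM in PLC and 9.293 FPKM in 97H, under the XPO1 inhibitor 37.37 and 2.228 FPKM, under the CDK4/6 inhibitor 119.1 and 1.617 FPKM, and in the controls 2.154 and 0.7703 FPKM. In Huh7 it had 107 FPKM with the CDK4/6 inhibitor, against 68.54 FPKM in the control. In PLC the CDK4/6 inhibitor alone thus gave the top level, 55.3-fold that of the control, and ANKRD1 was there 2nd from the top of all tested genes at a log2 ratio of 5.25. In 97H the same drug gave a log2 ratio of 0.56 and in Huh7 0.64, so most of the mean difference for this gene came from PLC. The 97H levels lie near 1 FPKM, where the added 1 shrinks log2 ratios.

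**Figure D2:**
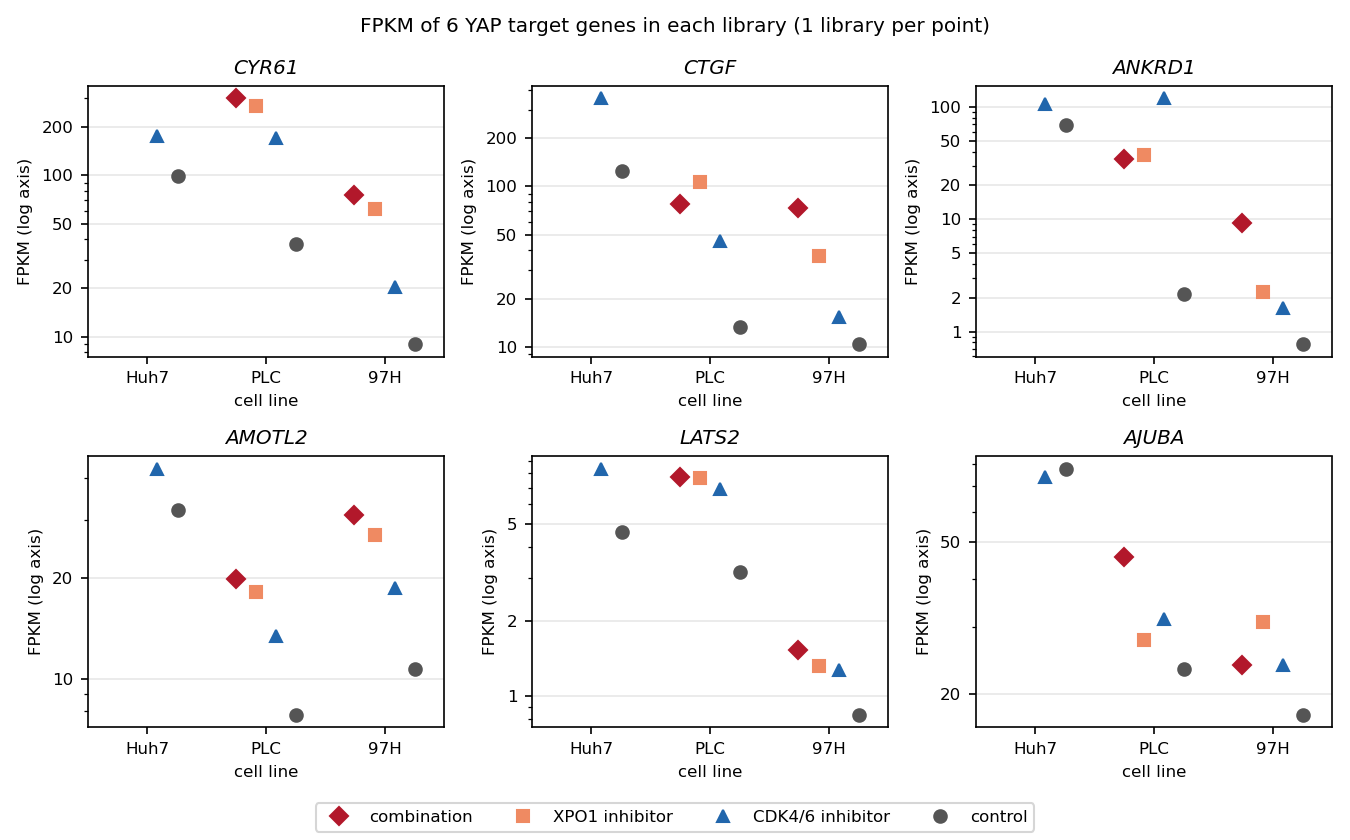
FPKM of each YAP target gene (log y axis) in each cell line (x axis), 1 library per point, marked by treatment. The treated libraries lie above the control of their line in every panel but AJUBA, where the Huh7 library with the CDK4/6 inhibitor (73.89 FPKM) lies below its control (77.68 FPKM).

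AMOTL2 and LATS2, whose products hold YAP back, were also above control in all 7 treated libraries. AMOTL2 had 19.97 FPKM in PLC and 31.12 FPKM in 97H under the combination, 18.2 and 26.92 FPKM under the XPO1 inhibitor, 13.43 and 18.73 FPKM under the CDK4/6 inhibitor, and 7.78 and 10.71 FPKM in the controls. Its order was therefore that of CYR61 in both lines, and the log2 ratios in PLC and 97H were 1.26 and 1.46 for the combination, 1.13 and 1.25 for the XPO1 inhibitor, and 0.72 and 0.75 for the CDK4/6 inhibitor. In Huh7 it had 42.71 FPKM with the CDK4/6 inhibitor and 32.18 FPKM in the control.

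LATS2 had the lowest FPKM of the 6 genes in every library except the PLC and 97H controls, where ANKRD1 was lower. It had 7.732 FPKM in PLC and 1.528 FPKM in 97H under the combination, 7.688 and 1.316 FPKM under the XPO1 inhibitor, 6.891 and 1.27 FPKM under the CDK4/6 inhibitor, and 3.189 and 0.8354 FPKM in the controls. The 3 treated libraries of a line lay close together, and apart from the control. In Huh7 it had 8.343 FPKM with the CDK4/6 inhibitor and 4.604 FPKM in the control.

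AJUBA showed no common order. It had 45.62 FPKM in PLC and 23.87 FPKM in 97H under the combination, 27.69 and 30.95 FPKM under the XPO1 inhibitor, 31.34 and 23.84 FPKM under the CDK4/6 inhibitor, and 23.26 and 17.65 FPKM in the controls. The combination was the top library in PLC and the XPO1 inhibitor in 97H. Huh7 cells had 73.89 FPKM with the CDK4/6 inhibitor, against 77.68 FPKM in the control, a log2 ratio of -0.07.

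Taking the 6 genes as a group, all 6 were above control in both lines under the XPO1 inhibitor, where 21.7% of tested genes were. Under the CDK4/6 inhibitor 5 of 6 were above control in all 3 lines, against 12.9% of tested genes, and none was below it in all 3, as 10.3% of tested genes were. Under the combination 6 of 6 were above control in both lines, against 29.6%. In all 7 treated libraries 5 of 6 were above the control of their line, against 6.02% of tested genes, and in the 4 treated libraries of Huh7 and 97H alone 5 of 6, against 19% of tested genes, a count added after the PLC control was seen to stand apart. The combination libraries belong to the comparison from which CYR61 and CTGF were chosen, and the single inhibitors share its control libraries. The Huh7 pair shares none, and there 5 of 6 genes were above control, with a median log2 ratio of 0.69 against -0.04 for all tested genes and with 45.5% of tested genes above control.

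**Figure D3:**
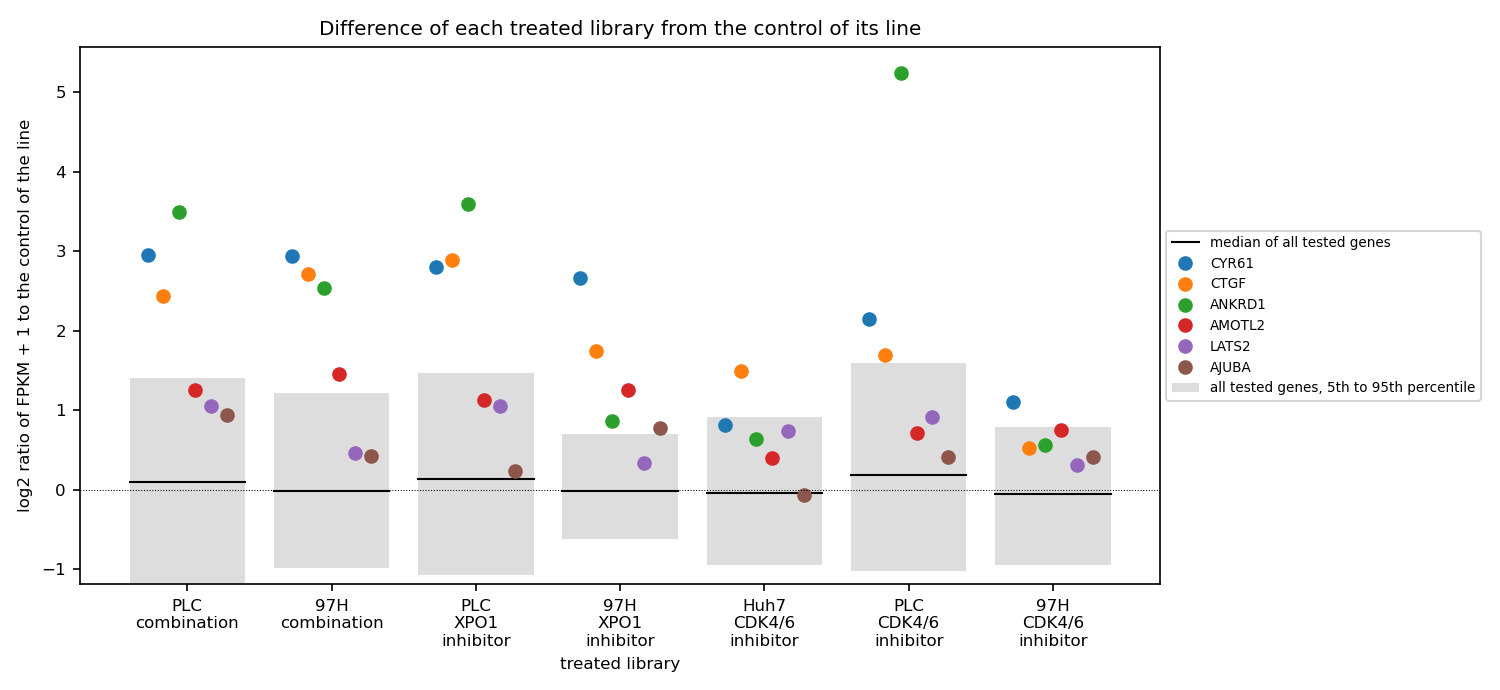
Log2 ratio of FPKM + 1 in each treated library to the control of its line (y axis) for the 6 genes (coloured points), beside the 5th to 95th percentile (grey) and median (line) of all 10477 tested genes. CYR61 lies above the grey range in 6 of the 7 libraries and below its upper end (0.91) only in Huh7, where it is at 0.81.

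For the XPO1 inhibitor against control, CYR61 had the smallest p of all 10477 genes, but neither it nor any other gene passed adjustment. The comparison shares its controls and its estimate of the spread with the combination, for which CYR61 and CTGF were proposed. Their p-values and ranks here are therefore no independent test. Differences were fitted with limma, with the line as a term, and a gene was called at a Benjamini-Hochberg adjusted p under 0.05. CYR61 was at 2.73 on the log2 scale (SE 0.32, adjusted p = 0.17), higher in 2 of 2 lines. CTGF was at 2.31 (SE 0.41, adjusted p = 0.703), with the 5th smallest p of all genes, and AMOTL2 at 1.19 (SE 0.31, adjusted p = 0.968), with the 28th. ANKRD1 was at 2.24 (SE 0.92), LATS2 at 0.69 (SE 0.37) and AJUBA at 0.51 (SE 0.33). When the PLC control was left out ANKRD1 was at 0.84 and LATS2 at 0.37, and when the 97H control was, ANKRD1 was at 3.63. AJUBA was at 0.15 without the 97H XPO1 inhibitor library and at 0.86 without the PLC one. None of the 6 genes was called, as 0% of tested genes were, with 258 genes at an unadjusted p under 0.05. Among 17 alternative fits, 3 called CYR61: the adjusted p was 0.0363 after quantile normalization, 0.0046 when the CDK4/6 inhibitor library of PLC was left out and 0.00146 when that of 97H was, and it ran up to 1 in the others.

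For the CDK4/6 inhibitor against control, over 3 lines, all 6 fitted differences were positive and none passed. CYR61 was at 1.35 (SE 0.27, limma adjusted p = 0.461), with the 10th smallest p, and CTGF at 1.24 (SE 0.31, adjusted p = 0.461). Each was higher in 3 of 3 lines. This comparison too shares controls and its estimate of the spread with the combination, for which CYR61 and CTGF were proposed. Their p-values, the rank and the count of lines are therefore no independent test. Only the Huh7 pair shares no control with the combination. ANKRD1 was at 2.15 (SE 0.77), AMOTL2 at 0.62 (SE 0.22), LATS2 at 0.65 (SE 0.26) and AJUBA at 0.25 (SE 0.25), with adjusted p from 0.495 to 0.851. ANKRD1 was at 0.93 when the PLC CDK4/6 inhibitor library was left out and at 1.11 when the PLC control was, and AJUBA was at 0.41 without either Huh7 library. Here too 0% of tested genes were called, with 922 at an unadjusted p under 0.05.

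For the combination against control, the fitted log2 differences were 2.95 for CYR61 (SE 0.32), 2.58 for CTGF (SE 0.41) and 3.01 for ANKRD1 (SE 0.92). AMOTL2 was at 1.36 (SE 0.31), LATS2 at 0.76 (SE 0.37) and AJUBA at 0.68 (SE 0.33). The median of the 6 was 1.97, against 0.07 for all tested genes. In this comparison 0.792% of tested genes were called, 32 higher (0.305%) and 51 lower (0.487%), and nothing is read from it for the 6 genes. When the PLC control was left out ANKRD1 was at 1.62 and LATS2 at 0.44. AJUBA was at 0.33 without the PLC combination library and at 1.03 without the 97H one.

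Whether the combination went beyond each inhibitor was answered differently by the genes. Against the CDK4/6 inhibitor alone, CYR61 was at 1.33 (SE 0.32) and CTGF at 1.47 (SE 0.41), both higher in 2 of 2 lines. These comparisons use the combination libraries for which CYR61 and CTGF were proposed, so their values are descriptions, without a test, and nothing is read from the counts of members. The combination was above the CDK4/6 inhibitor in both lines for 5 of 6 genes, against 20.7% of tested genes, although AJUBA in 97H had 23.87 FPKM against 23.84 FPKM. The exception was ANKRD1, at -1.76 in PLC and 1.98 in 97H.

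Against the XPO1 inhibitor alone the intervals were wide and included 0 for all 6 genes. CYR61 was at 0.22 (95% interval -0.51 to 0.96), CTGF at 0.26 (-0.67 to 1.19) and AMOTL2 at 0.16 (-0.54 to 0.86) in the limma fit. These intervals do not show that the treatments act alike. The combination was above the XPO1 inhibitor in both lines for 3 of 6 genes (CYR61, AMOTL2 and LATS2), against 24.2% of tested genes. Both comparisons called 0% of tested genes, with 345 genes at an unadjusted p under 0.05 against the CDK4/6 inhibitor and 520 against the XPO1 inhibitor.

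The combination stayed below the sum of the single log2 ratios for CYR61 in both lines, with 2.96 against a sum of 4.95 in PLC and 2.94 against 3.76 in 97H. The fitted departure was -1.40 (SE 0.46, n = 2 lines). AMOTL2 was also below its sum in both lines, with 1.26 against 1.85 in PLC and 1.46 against 2.01 in 97H, as was LATS2, with 1.06 against 1.97 and 0.46 against 0.64. In all, 3 of 6 genes were below the sum in both lines, against 15.6% of tested genes. The median fitted departure of all tested genes was -0.11. The departures use the combination and control libraries from which CYR61 and CTGF were proposed. They are descriptions, without a test, and nothing is read from the count of members. CTGF and ANKRD1 were below it in PLC (2.44 against 4.58, and 3.49 against 8.85) and above it in 97H (2.71 against 2.27, and 2.54 against 1.43). No gene passed for this departure, so 0% were called, with 60 at an unadjusted p under 0.05.

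**Figure D4:**
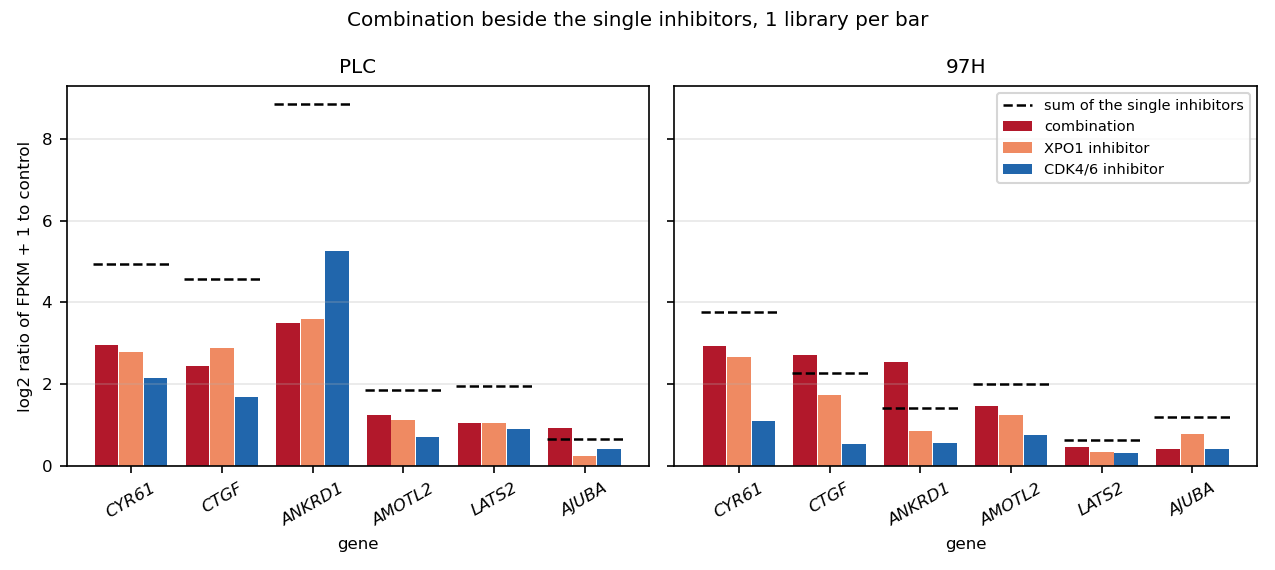
Log2 ratio of FPKM + 1 to control (y axis) for the combination and each inhibitor in PLC and 97H, 1 library per bar, with the sum of the single ratios as a dashed line. CYR61, AMOTL2 and LATS2 stay below the dashed line in both lines, and ANKRD1 in PLC is highest with the CDK4/6 inhibitor alone (5.25).

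In the controls, all 6 genes were highest in Huh7, as were 36.3% of tested genes. CYR61 had 99.46 FPKM there, against 37.58 in PLC and 8.967 in 97H, and CTGF had 124.8, against 13.43 and 10.41. ANKRD1 had 68.54 FPKM in the Huh7 control, against 2.154 and 0.7703. PLC was above 97H for these 3 genes, LATS2 and AJUBA, while AMOTL2 had 7.78 FPKM in PLC and 10.71 in 97H. With 1 control per line, the order of lines has no replicate check.

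CTGF and CYR61 had the smallest distance to each other, which is a description only, since both were proposed for high values in combination libraries that enter the distance. Likeness was taken as the root mean square difference between the 7 log2 ratios to control, which share 3 controls. It was 0.56 between CYR61 and CTGF, the smallest of 10476 for each. Next to CYR61 came TUFT1 (0.73), NEDD9 (0.86), ANXA3 (0.87) and UBD (0.89). Next to CTGF came TUFT1 (0.62), NEDD9 (0.69), GABARAPL1 (0.70) and BAAT (0.70). NEDD9, a scaffold protein of focal adhesions, had ratios of 1.47, 1.99 and 0.89 in PLC and 2.96, 1.86 and 0.85 in 97H for the combination, the XPO1 inhibitor and the CDK4/6 inhibitor. AMOTL2 was 71st from CYR61, at 1.32, ANKRD1 118th, LATS2 459th and AJUBA 1023rd. With a pseudocount of 0.1 the 5 nearest shared 2 with those above for each gene, and CCNG2 was nearest to CTGF.

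Of 28 other genes that YAP and TEAD are known to drive, 22 were tested, and none passed in any of the comparisons. Among all tested genes 0.792% were called under the combination and 0% in the other comparisons. Their median log2 difference was 0.57 for the combination, 0.52 for the XPO1 inhibitor and 0.53 for the CDK4/6 inhibitor, against 0.07, 0.10 and 0.03 for all tested genes. NUAK2, a stress-responsive kinase, had the smallest p of the list under the combination, with a difference of 1.26 (limma adjusted p = 0.199), and EDN1 (endothelin 1) was at 1.47. AXL, a receptor tyrosine kinase, and FJX1 were lower, at -1.07 and -0.93. Under the CDK4/6 inhibitor F3 (tissue factor) was at 1.43 and GADD45A at 1.27, each with adjusted p = 0.461. In Huh7 under the CDK4/6 inhibitor 21 of 22 were above control, against 45.5% of tested genes. Their median there was 0.89, against 0.69 for the 6 genes and -0.04 for all tested genes. This list was drawn up with earlier results of these libraries known, and the Huh7 values rest on 1 pair of libraries. The count and median are therefore descriptions and no independent evidence.

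The median of this wider list differed between lines, as did that of all tested genes. Its median log2 ratio under the XPO1 inhibitor was 0.44 in PLC and 0.17 in 97H, against 1.96 and 1.06 for the 6 genes and 0.14 and -0.02 for all tested genes. Under the CDK4/6 inhibitor it was 0.48 in PLC and 0.22 in 97H, against 0.18 and -0.06 for all tested genes. MYOF (myoferlin) shows the split, as an example chosen after its values were seen. It had 31.8, 14.9 and 26.5 FPKM in PLC with the combination, the XPO1 inhibitor and the CDK4/6 inhibitor, against 1.23 FPKM in the PLC control. In 97H it had 30.2, 33.8 and 27.5 FPKM, against 35.3 FPKM in the control.

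No mRNA of YAP, TAZ or a TEAD protein passed the test. YAP1 had 12.2, 13.5 and 15.1 FPKM in PLC with the combination, the XPO1 inhibitor and the CDK4/6 inhibitor, against 5.17 FPKM in the control, and 8.86, 9.82 and 7.32 FPKM in 97H, against 12.2 FPKM. It was thus above control in PLC and below it in 97H. WWTR1, which encodes TAZ, had 6.54, 7.72 and 6.42 FPKM in the treated PLC libraries in the same order, against 4.26 FPKM in the control. In 97H it had 14.8, 18.6 and 17.1 FPKM, against 21.2 FPKM. In Huh7 it had 8.6 FPKM with the CDK4/6 inhibitor, against 5 FPKM. WWTR1 was thus above control in PLC and Huh7 and below it in 97H. Under the combination the fitted differences were 0.34 for YAP1, 0.02 for WWTR1, 0.55 for TEAD1, -0.34 for TEAD2, 0.30 for TEAD3 and -0.86 for TEAD4 (limma adjusted p = 0.333, the smallest of these 6). VGLL4, a competitor of YAP for TEAD, was at 0.15. TEAD1 is counted in the list of targets above. Of 9 listed factors and cofactors 6 were tested (YAP1, WWTR1, TEAD2, TEAD3, TEAD4 and VGLL4). None of them was called in any comparison, where 0.792% of all tested genes were called under the combination.

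Of 20 listed Hippo kinases and regulators 18 were tested and 0 called, where 0.792% of all tested genes were called under the combination and 0% in the other comparisons. Their median under the combination was 0.13, at 0.31 in PLC and -0.07 in 97H. WWC1 (KIBRA, an activator of LATS kinases) had the smallest p, at 1.27 (limma adjusted p = 0.299), with 2.12 in PLC and 0.42 in 97H. AMOT was at 0.96, but with at most 0.0194 FPKM in 97H its difference came from PLC. MAP4K4 and TAOK3, kinases that act on LATS, were at 0.53 and 0.48, above control in PLC (1.63 and 0.88) and at -0.56 and 0.08 in 97H. LATS1 was at -0.11, beside 0.76 for LATS2.

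CYR61 and CTGF are also known targets of other factors, among them SRF with its cofactors MRTF, and the SMAD proteins of the TGF-beta pathway. Of 15 listed SRF and MRTF targets 13 were tested, and MYL9, a myosin light chain gene, rose under the combination by 3.41 on the log2 scale (SE 0.35, limma adjusted p = 0.0176), higher in 2 of 2 lines. The call was lost when the PLC combination, the PLC control (0 genes called in each) or the 97H combination library (2 called, 0 higher) was left out, with no filter (1 called, 0 higher) and with no line in the model (0 called). It was at 2.13 with the XPO1 inhibitor and 1.81 with the CDK4/6 inhibitor, not called. TPM1 (a tropomyosin) was at 1.68, ACTN1 (an actinin) at 0.72 and TAGLN (transgelin) at 2.78, none passing, TAGLN with 0.42 in PLC and 5.14 in 97H. The median of the 13 was 0.71, against 0.07 for all tested genes, and 1 of the 13 was called, where 0.792% of all tested genes were. In Huh7 with the CDK4/6 inhibitor 7 of the 13 were above control, with a median log2 ratio of 0.22. Of 10 listed TGF-beta response genes 9 were tested and 0 called. Their median was 0.54 under the combination, 0.86 under the XPO1 inhibitor and 0.24 under the CDK4/6 inhibitor. Those of all tested genes were 0.07, 0.10 and 0.03. In Huh7 with the CDK4/6 inhibitor 2 of the 9 were above control. The median log2 ratio there was -0.05, against -0.04 for all tested genes. Under the combination the fitted differences of single genes were as follows. TGFBI was at 1.62 (adjusted p = 0.0697), PMEPA1 at 1.42, BAMBI at 0.61 and ID1 at -1.02. The lists were drawn up with earlier results of these libraries known, so MYL9 and TGFBI are no independent evidence. The remaining CCN family genes NOV, WISP1, WISP2 and WISP3 did not pass the filter, the highest value being 3.48 FPKM for WISP3 in Huh7 with the CDK4/6 inhibitor.

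**Figure D5:**
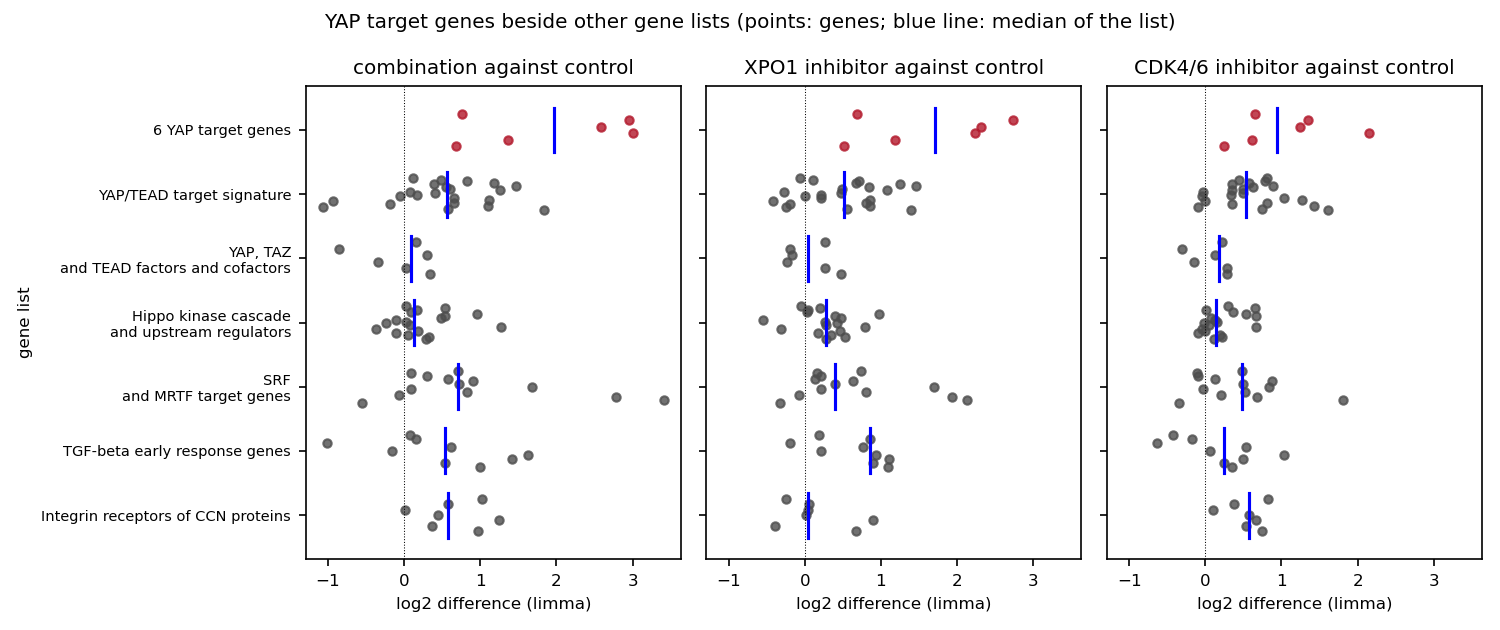
Fitted log2 difference (x axis) of each gene against control under the combination, the XPO1 inhibitor and the CDK4/6 inhibitor, by gene list (y axis), with the list median as a blue line. The medians of the 6 YAP target genes are 1.97, 1.71 and 0.95, against 0.57, 0.52 and 0.53 for the 22 other YAP and TEAD targets.

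CYR61 and CTGF are also active in fibroblasts and endothelial cells, and markers of fibroblasts were measured at differing levels. The 6 fibroblast and stellate cell markers summed to 0.437 to 30.8 FPKM in combination, 0.276 to 7.87 in XPO1 inhibitor, 0.383 to 141 in CDK4/6 inhibitor and 0.707 to 34.8 in control libraries. Of the 6, 5 reached 1 FPKM in CDK4/6 inhibitor and in control libraries, and 2 in combination and in XPO1 inhibitor libraries, while DCN did not exceed 0.114 FPKM. These counts and sums are not comparable between treatments, since Huh7 has only CDK4/6 inhibitor and control libraries. COL1A2, COL3A1 and PDGFRB reached 1 FPKM only in Huh7, which also gave the sums of 141 and 34.8 FPKM. In 97H under the combination LUM had 26 FPKM, against 3.17 FPKM in the control, and COL1A1 had 3.82 FPKM, against 0.166 FPKM. In PLC LUM had at most 0.0329 FPKM. COL1A2 had 77.8 FPKM in Huh7 with the CDK4/6 inhibitor, against 16.2 FPKM in the control, LUM had 40.8 FPKM, against 9.51 FPKM, and COL1A1 had 13.4 FPKM, against 6.08 FPKM. The part of these markers in the Huh7 and 97H values of the 6 genes was not tested. The 4 endothelial markers summed to 0.0499 to 4.38 FPKM in combination and 0.0339 to 4.94 FPKM in control libraries. The 4 leukocyte markers summed to 82.1 to 218 FPKM in combination and 40.5 to 108 FPKM in control libraries, nearly all of it CD68 and LYZ, while the defining PTPRC and CD3E did not exceed 0.0226 and 0.035 FPKM in any library.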

How the data were processed

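Per the labels' protocols, RNA was extracted by Trizol for TruSeq RNA libraries. CASAVA 1.8.2 made the base calls, per the submitters' processing notes, and reads were aligned to GRCh38 with STAR 2.4.2g1 and counted with featureCounts of Subread. The deposited values are FPKM, computed by the authors in a way the notes do not describe. Whole reads were not recovered, so no count model was run and precision is that of the number of libraries. In 27 entries a date in place of the symbol was replaced by the RefSeq symbol of the gene ID.

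log2(FPKM + 1) was tested for 10477 genes with limma 3.58.1 in R 4.3.3 (trended prior variance, two-sided, Benjamini-Hochberg over all tested genes), with treatment and line as terms. The 8 libraries of PLC and 97H entered each fit, and all 10 that of the CDK4/6 inhibitor against control. The script was tested on simulated data. Pairing by line comes from the labels: deviations of CDK4/6 inhibitor and control libraries from their group means correlated at 0.901 in Huh7, 0.665 in PLC and 0.818 in 97H. With the line as a term, differences in level between lines are taken out. The remaining spread reflects how far the treatment differences disagree between lines, pooled over treatments, and is drawn toward the trended prior variance. The p-values set the mean treatment difference against that spread. No 2 libraries held identical values.

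The members and lists were chosen with earlier results of these data known. Named genes were the 6 members, called list genes, those of each list with the smallest p (4 for the combination, 2 for each inhibitor), the YAP, TAZ and TEAD genes with LATS1, and the 5 genes nearest to CYR61 and to CTGF. Alternatives were another pseudocount, filter, scaling, prior, block or set of libraries, removal of trends of GC content and length (GENCODE 29 transcripts, matched for 99.2% of tested genes), and leaving out each library.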

Additional observations from a re-analysis of the deposited data

Results flagged for a closer look

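In each of the following the lines went opposite ways under the same contrast. Each rests on 1 pair of libraries per line, and the difference between lines was not tested. All values are log2 differences of FPKM + 1.

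CTGF under the combination against the XPO1 inhibitor was at -0.44 in PLC and 0.97 in 97H, and its departure from the sum of the single inhibitors was -2.13 in PLC and 0.44 in 97H. ANKRD1 under the combination was at -0.12 in PLC and 1.67 in 97H against the XPO1 inhibitor, and at -1.76 in PLC and 1.98 in 97H against the CDK4/6 inhibitor. Its departure from the sum was -5.37 in PLC and 1.11 in 97H. AJUBA under the CDK4/6 inhibitor against control was at -0.07 in Huh7, 0.41 in PLC and 0.41 in 97H. Under the combination against the XPO1 inhibitor AJUBA was at 0.70 in PLC and -0.36 in 97H, and its departure from the sum was 0.29 in PLC and -0.77 in 97H. For CYR61, AMOTL2 and LATS2 the lines had the same sign in all 6 comparisons.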

How the results depend on the processing

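The 6 genes kept a positive difference from control under the combination, the XPO1 inhibitor and the CDK4/6 inhibitor in every alternative run. For CYR61 these ran from 2.75 to 3.15 under the combination, from 2.53 to 2.93 under the XPO1 inhibitor and from 0.98 to 1.62 under the CDK4/6 inhibitor. The count of genes called for the combination against control, 83 as reported, was 1 with no filter, 153 with quantile normalization, 0 with no replicate block (no line in the model), 27 with a single prior variance, 261 with all 10 libraries and 471 with GC content and length trends removed. On leaving out a library it ran from 0 (the PLC combination or the PLC control) to 184 (the 97H CDK4/6 inhibitor), with 2 for the 97H combination, 158 for the PLC CDK4/6 inhibitor and 166 for the 97H control. For the XPO1 inhibitor against control, 0 as reported, it was 1 with no filter and 1 with quantile normalization, and 0 to 1 on leaving out a library. For the combination against the CDK4/6 inhibitor, 0 as reported, it was 8 with a pseudocount of 0.1, 6 with the filter taken over the libraries in the fit, 8 with quantile normalization, 5 with median ratio scaling, 3 with all 10 libraries, 40 with GC content and length trends removed, and 0 to 8 on leaving out a library. For the combination against the XPO1 inhibitor, 0 as reported, it was 4 with quantile normalization, 49 with the trends removed and 0 to 6 on leaving out a library. The causes were not tested. Leaving out the line called none of the 6 genes in the tested comparisons.

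Sign changes were found only for differences near 0. ANKRD1 in the combination against the CDK4/6 inhibitor was at -0.02 with quantile normalization and ran from -1.62 to 1.83 on leaving out a library, and AJUBA ran from -0.09 to 0.62. Against the XPO1 inhibitor CTGF ran from -0.26 to 0.78, LATS2 from -0.09 to 0.22 and AJUBA from -0.19 to 0.52. The departure of AJUBA from the sum ran from -0.60 to 0.11. Where a library is left out, the treatment it belonged to keeps fewer libraries, and with 1 left its spread is taken from the other treatments.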

Other observations

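Of the receptors to which CCN proteins bind, 7 of 10 listed were tested and 0 were called. Their median log2 difference was 0.57 under the combination and 0.57 under the CDK4/6 inhibitor, against 0.04 under the XPO1 inhibitor, the treatment with the higher CYR61 of the single inhibitors. Under the combination ITGB1, the integrin beta 1 chain, was at 1.24 (limma adjusted p = 0.475), LRP1 at 1.02, ITGAV at 0.97 and ITGB3 at 0.44. ITGB1 had 105, 148 and 167 FPKM in PLC with the combination, the XPO1 inhibitor and the CDK4/6 inhibitor, against 32.6 FPKM in the control, and 81, 35 and 27.2 FPKM in 97H, against 44.8 FPKM. ITGA5 was at 0.54 under the CDK4/6 inhibitor and -0.39 under the XPO1 inhibitor.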
